A study of Mus musculus with 12 samples.

Results

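The 10 genes described here encode collagens, laminins and nidogens of the basement membrane: Col4a1, Col4a2, Col15a1, Col18a1, Lama2, Lama4, Lamb1, Lamc1, Nid1 and Nid2. They were found by their symbols among the 27998 genes of the deposited single-cell count matrices, and all 10 had a row in each of the 12 libraries. Over the 20060 cells kept, the members gave between 2863 UMIs (unique molecular identifiers, one for each captured transcript) for Nid2 and 13779 UMIs for Col4a2.

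Basement membranes are thin extracellular sheets that lie under endothelium and epithelium and around pericytes, smooth muscle, muscle fibres, Schwann cells and fat cells. Laminin trimers, each made of an alpha, a beta and a gamma chain, polymerise at the cell surface and are joined to a network of type IV collagen by nidogens, while the multiplexins, collagens XV and XVIII, sit at the border with the interstitial matrix. In the synovium basement membranes surround blood vessels, and the lining layer is known for lacking a continuous one although its cells make some of the components.

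The study profiled stromal cells of hind limb joints from wild type male C57BL/6 mice of 8 to 10 weeks during serum transfer-induced arthritis, a self-limiting arthritis caused by injected K/BxN serum. There were 3 libraries for each of 4 labels: rest, taken on day 0 without serum, peak, on days 7 to 9, resolving, on day 15, and resolved, on day 22. Each library pooled cells from the joints of 3 animals, sorted as live and negative for the leukocyte antigen CD45, and was made with the 10x Genomics 3′ chemistry, version 2. Libraries held 1227 to 2747 kept cells (median 1577) and 7468914 to 16566202 UMIs, and no cell barcode was shared between libraries.

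The libraries did not group by these labels. The numeric suffix of the cell barcodes rose by 4 within a label, so that the rest libraries carried suffixes 1, 5 and 9, the peak libraries 2, 6 and 10, the resolving libraries 3, 7 and 11 and the resolved libraries 4, 8 and 12. Fibroblasts of libraries with consecutive suffixes were alike. Over 4965 genes, with the mean of each label subtracted, 12 pairs of libraries from the same run of 3 suffixes correlated with Pearson's r from 0.56 to 0.82. Pairs of one label were not compared in this way, because subtracting their shared mean sets their deviations against each other. Results that could rest on the suffix run are therefore given by label and by suffix run, and a group means the libraries that carry that label. Whether each label belongs to the matrix it is attached to could not be checked here. Runs 1, 2, 3 and 4 stand for suffixes 1 to 3, 4 to 6, 7 to 9 and 10 to 12, and each run held libraries of 3 different labels.

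Type IV collagen trimers of the common kind are made from the alpha1 and alpha2 chains, the products of Col4a1 and Col4a2, and these genes lie head to head with a shared promoter region. The start sites were 21 bases apart and the annotated genes overlapped by 22 bases on chromosome 8 (Col4a1 chr8:11198423-11312826, minus strand, Col4a2 chr8:11312805-11449287, plus strand, GRCm38). Their promoter windows are shown because the genes moved together in most comparisons. Each window runs from 250 bases before to 50 bases after the RefSeq start site (GRCm38.p6), at chr8:11312777-11313076 for Col4a1 and chr8:11312555-11312854 for Col4a2, 5′ to 3′ on the strand of the gene, and capitals mark GC boxes (GGGCGG) and CCAAT boxes (CCAAT) on either strand.
Col4a1: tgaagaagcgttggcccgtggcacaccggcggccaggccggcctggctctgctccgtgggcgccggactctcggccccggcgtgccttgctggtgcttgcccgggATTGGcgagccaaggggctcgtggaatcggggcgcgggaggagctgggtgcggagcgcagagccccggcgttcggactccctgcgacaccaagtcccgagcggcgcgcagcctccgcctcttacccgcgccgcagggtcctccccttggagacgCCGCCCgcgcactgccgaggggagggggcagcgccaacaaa
Col4a2: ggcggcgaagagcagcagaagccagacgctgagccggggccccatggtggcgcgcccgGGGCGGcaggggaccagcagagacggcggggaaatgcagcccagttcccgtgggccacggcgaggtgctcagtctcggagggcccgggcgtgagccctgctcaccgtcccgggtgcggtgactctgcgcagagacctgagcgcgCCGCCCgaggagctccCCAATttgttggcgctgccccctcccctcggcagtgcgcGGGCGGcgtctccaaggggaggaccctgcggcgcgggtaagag

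The windows shared 78 bases, and Col4a1 held 1 GC box against 3 for Col4a2, with 1 CCAAT box each. The GC box of Col4a1 lies in the shared bases and is the same site as 1 of the 3 of Col4a2, read on the other strand. Of 32851 RefSeq promoter windows of this length, 35.7% held GGGCGG and 37.4% held CCAAT on either strand, and 13.6% held the TATA box TATAAA, which was in neither window. Windows were found for 7 of the 10 members, and those of Lama4, Lamc1 and Nid2 were not.

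Cells were placed in classes by fixed markers, none of them a member, after clustering on genes that left the members out. Every class name here means cells like that type by these markers. The classes were fibroblasts (11889 cells), vascular endothelial (1769), perivascular (655), lymphatic endothelial (186), osteoblast (1379), tenocyte (1944), chondrocyte (881), muscle (397), proliferating (677), Schwann (109), immune (112) and erythroid cells (62). UMIs were summed by library and class where at least 10 cells were present, which 12 libraries gave for the first 3 classes and for osteoblasts, tenocytes and chondrocytes, 10 for lymphatic endothelial cells, 9 for muscle, 6 for proliferating cells, 3 for Schwann and immune cells and 2 for erythroid cells. Levels are given in CPM, the UMIs of a gene scaled to the total UMIs of its sum, with the SD over libraries. Since 3′ tags are counted and not normalised for length, levels are compared between cells, and a ratio of one member to another is printed to describe how their balance differed between classes, not their relative amounts.

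Vascular endothelial and perivascular cells, the cells on both sides of the vessel basement membrane, held the highest levels of the type IV collagens. In fibroblasts Col4a1 ranged from 49.5 to 94.7 CPM over 12 libraries, with a median of 65.0 CPM and a mean of 67.5 ± 13.0 CPM. It ranged from 219 to 873 CPM (median 440, mean 473 ± 235) in vascular endothelial cells and from 111 to 865 CPM (median 380, mean 432 ± 274) in perivascular cells. The lowest endothelial and the lowest perivascular library both lay above the highest fibroblast library, so these groups did not overlap. Lymphatic endothelial cells were in between, from 103 to 414 CPM (median 211, mean 210 ± 106, n = 10), and all 10 were above every fibroblast library.

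Col4a2 followed the same order. Its mean was 88.1 ± 15.0 CPM in fibroblasts (59.9 to 107, median 90.5), 496 ± 264 CPM in vascular endothelial cells (210 to 983, median 424) and 481 ± 271 CPM in perivascular cells (207 to 976, median 437), again with no overlap between fibroblasts and either vessel class. Lymphatic endothelial cells had 189 ± 119 CPM (59.4 to 400, median 158), which overlapped the fibroblasts. The log2 ratio of Col4a1 to Col4a2 CPM within a sum was −0.39 ± 0.26 in fibroblasts (n = 12), −0.04 ± 0.17 in vascular endothelial cells (n = 12) and −0.76 ± 0.30 in tenocytes (n = 11), as a description of how the balance of both chains' tags shifted between classes.

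Col15a1 encodes the alpha1 chain of collagen XV, which is found in capillary and muscle basement membranes (chr4:47208161-47313167, plus strand). Vascular endothelial cells held 43.0 to 565 CPM (median 179, mean 238 ± 180) and fibroblasts 11.0 to 58.9 CPM (median 36.0, mean 34.9 ± 15.4). Endothelial Col15a1 was above that of the fibroblasts in each of the 12 libraries, although the lowest endothelial library lay within the fibroblast range. In lymphatic endothelial cells 6 UMIs in 172 cells gave a mean of 8.98 ± 18.3 CPM and a median of 0, with 57.1 CPM in the highest library.

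Col18a1 encodes the alpha1 chain of collagen XVIII, the precursor of the antiangiogenic fragment endostatin (chr10:77052178-77166548, minus strand). It was highest in perivascular cells, from 154 to 782 CPM (median 378, mean 441 ± 257), followed by lymphatic endothelial cells, from 193 to 614 CPM (median 392, mean 357 ± 131). Vascular endothelial cells ranged widely, from 20.6 to 459 CPM (median 178, mean 212 ± 190), and fibroblasts from 10.4 to 42.0 CPM (median 15.9, mean 19.3 ± 9.49). Perivascular and lymphatic sums did not overlap the fibroblasts, while the lowest vascular endothelial sums did. The log2 ratio of Col15a1 to Col18a1 was 0.63 ± 0.77 in vascular endothelial cells (n = 12, −0.51 to 1.85), and −2.42 ± 0.65 in the 6 perivascular sums with at least 10 UMIs of both genes. Sums with fewer UMIs of either gene were left out, so both values cover different libraries. The endothelial balance differed by run, with run means of 101, 305, 480 and 65.3 CPM for Col15a1 and 49.3, 396, 379 and 22.1 CPM for Col18a1.

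The laminin alpha chains differed by class. Lama2 encodes the alpha2 chain of the laminins around muscle and Schwann cells, whose loss causes a muscular dystrophy (chr10:26980036-27619758, minus strand). Its levels were 34.9 ± 18.3 CPM in fibroblasts (13.1 to 64.8, median 32.8), 37.7 ± 13.4 CPM in tenocytes and 31.5 ± 16.8 CPM in muscle cells (n = 9), against 4.24 ± 2.98 CPM in vascular endothelial cells (0 to 8.53, median 3.72). The endothelial and fibroblast ranges did not overlap, and 1 UMI of Lama2 was found in the 172 lymphatic endothelial cells of the sums.

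Lama4 encodes the alpha4 chain, which is typical of vessel and mesenchymal laminins (chr10:38965515-39110188, plus strand). It was highest in lymphatic endothelial cells, from 112 to 327 CPM (median 191, mean 208 ± 69.6), above all 12 fibroblast sums, which ran from 56.3 to 102 CPM (median 68.0, mean 70.6 ± 13.0). Vascular endothelial cells had 94.2 ± 29.2 CPM (56.3 to 153, median 88.5) and perivascular cells 68.3 ± 41.9 CPM (9.26 to 136, median 62.2), both overlapping the fibroblasts. Only 3 UMIs of Lama4 were counted in the muscle sums.

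Lamb1 and Lamc1 encode the beta1 and gamma1 chains, which are shared by laminins with the alpha2 or the alpha4 chain (chr12:31265234-31329644, plus strand, and chr1:153218922-153332786, minus strand). In fibroblasts Lamb1 spread from 15.5 to 123 CPM (median 62.6, mean 61.5 ± 40.2) and Lamc1 from 58.2 to 117 CPM (median 82.1, mean 85.4 ± 18.8). Vascular endothelial cells had 69.0 ± 34.8 CPM of Lamb1 (30.9 to 125, median 62.6) and 70.8 ± 29.4 CPM of Lamc1 (36.2 to 128, median 64.5), so both genes overlapped between the classes. The highest mean of Lamc1 was in lymphatic endothelial cells, 105 ± 47.7 CPM (n = 10). That of Lamb1 was in proliferating cells, 85.3 ± 13.7 CPM (n = 6), although lymphatic endothelial cells, 80.0 CPM over 10 libraries, were above them in all 5 libraries that held both.

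The nidogens parted ways. Nid1 (chr13:13437551-13512269, plus strand), which encodes the main linker between laminin and type IV collagen, was highest in fibroblasts at 141 ± 29.4 CPM (103 to 196, median 140), against 93.6 ± 30.1 CPM in vascular endothelial cells (57.1 to 148, median 88.3) and 106 ± 75.7 CPM in perivascular cells (18.5 to 250, median 91.2). Nid2 (chr14:19751265-19811787, plus strand), its paralog, had 18.6 ± 15.0 CPM in fibroblasts (4.66 to 44.2, median 11.9), 49.7 ± 29.2 CPM in vascular endothelial cells (17.1 to 108, median 47.2) and 58.2 ± 44.3 CPM in chondrocytes (4.71 to 148, median 44.1). All of these ranges overlapped between classes. The log2 ratio of Nid1 to Nid2 was 3.31 ± 1.39 in fibroblasts (n = 12, 1.21 to 5.18) and 0.99 ± 0.54 in vascular endothelial cells (n = 11, 0.22 to 2.03), with overlapping ranges.

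**Figure D1:**
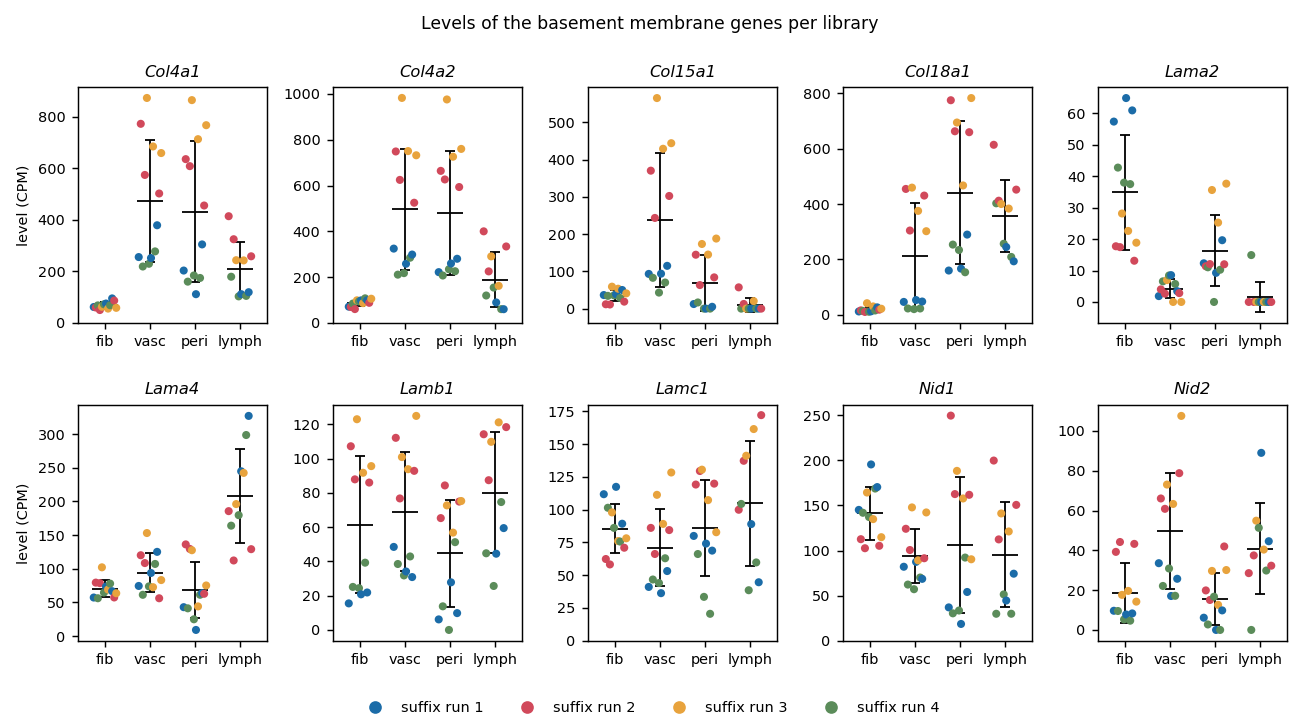
Level of each member in CPM in every library, for fibroblasts, vascular endothelial, perivascular and lymphatic endothelial cells; points are libraries coloured by suffix run, bars are means and whiskers ± SD. Col4a1 and Col4a2 sat above the fibroblasts in all 12 vascular endothelial and perivascular sums, and Lama2 sat below them in all 12 vascular endothelial sums.

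Differences between classes were tested on the sums with edgeR's quasi-likelihood F test, two-sided, with the library as a block and Benjamini-Hochberg adjustment over 10963 genes. A gene was called at an adjusted p under 0.05 with a log2 fold change (log2 FC, given ± SE) over 0.5 in size. The fit used TMM scaling, in which the median log2 FC of all genes was −0.04 for vascular endothelial, −0.14 for perivascular and −0.35 for lymphatic endothelial cells against fibroblasts, and scaling by total counts alone moved these medians to 0.27, 0.09 and 0.25. With that scaling the share of higher genes among those called went from 47.0% to 65.4%, from 41.0% to 59.6% and from 30.8% to 68.4%.

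In vascular endothelial cells 5 members were higher and 3 lower than in fibroblasts, where 24.8% of all genes tested were called higher and 28% lower. The median log2 FC of the members was 0.62. Col18a1 was 6.42-fold higher (log2 FC 2.68 ± 0.23, adjusted p = 1.13e-18), Col4a1 4.96-fold (2.31 ± 0.19, adjusted p = 9.66e-21), Col15a1 4.74-fold (2.25 ± 0.25, adjusted p = 6.74e-14) and Col4a2 3.95-fold (1.98 ± 0.17, adjusted p = 4.25e-19). All 4 were above the fibroblasts of their own library in 12 of 12 libraries and in all 4 suffix runs, as was Nid2 (log2 FC 1.16 ± 0.22, adjusted p = 3.66e-06).

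Lama2 was 8.27-fold lower in vascular endothelial cells than in fibroblasts (log2 FC −3.05 ± 0.26, adjusted p = 1.14e-18) and lower in every library. Nid1 was 2.02-fold lower (log2 FC −1.01 ± 0.16, adjusted p = 1.24e-08), but by CPM the difference depended on the run. Its means were 79.3 against 170 CPM in run 1 and 63.1 against 149 CPM in run 4. They were close in run 2 (105 against 107 CPM) and run 3 (126 against 138 CPM). Lamc1 had a log2 FC of −0.66 ± 0.14 (adjusted p = 2.83e-05), but its call was lost with scaling by total counts, where the log2 FC was −0.35, and the CPM of the endothelial cells was above that of the fibroblasts in 6 of 12 libraries. Lama4 (log2 FC 0.07 ± 0.12, adjusted p = 0.636) and Lamb1 (−0.05 ± 0.16, adjusted p = 0.819) did not pass.

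Perivascular cells had 4 members higher and 3 lower than fibroblasts, beside 16.1% and 23.2% of all genes, and a median log2 FC over the members of −0.18. Col18a1 was 17.3-fold higher (log2 FC 4.11 ± 0.24, adjusted p = 1.82e-28), Col4a1 4.78-fold (2.26 ± 0.19, adjusted p = 1.44e-18) and Col4a2 4.06-fold (2.02 ± 0.18, adjusted p = 3.98e-18), in 12 of 12 libraries each. Col15a1 was called with a log2 FC of 0.75 ± 0.31 (adjusted p = 0.0379), but it was above the fibroblasts in only 6 of 12 libraries, those of runs 2 and 3, and the call was lost in 9 alternatives, among them DESeq2 and thinned cells. Without rest 2, rest 3, peak 2, resolving 2, resolved 1 or resolved 2 its log2 FC was 0.60, 0.63, 0.44, 0.67, 0.57 and 0.72, with adjusted p from 0.0913 to 0.261.

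Lama2 was called lower in perivascular cells than in fibroblasts (log2 FC −1.10 ± 0.27, adjusted p = 0.000319), but its CPM was above theirs in the 3 libraries of run 3. Nid1 (−0.67 ± 0.17, adjusted p = 0.000774) and Lamb1 (−0.63 ± 0.20, adjusted p = 0.00697) were called lower too. By CPM, Nid1 was above the fibroblasts in 5 of 12 libraries, among them all 3 of run 2 (mean 191 against 107 CPM), and Lamb1 in 2. Both calls were lost with scaling by total counts, at −0.43 and −0.39. That of Nid1 was also lost with at least 30 cells per sum (−0.48). That of Lamb1 was also lost with DESeq2, without the library block, with the replicate number as the block, and without resolved 2, there at −0.51 (adjusted p = 0.052). Lamc1, Lama4 and Nid2 did not pass (adjusted p = 0.447, 0.664 and 0.479).

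Lymphatic endothelial cells, which line vessels known for a sparse and broken basement membrane, had 3 members higher and 3 lower than fibroblasts, beside 11.7% and 26.4% of all genes, with a median log2 FC over the members of 0.07. Col18a1 was 11.2-fold higher (log2 FC 3.49 ± 0.29, adjusted p = 4.22e-19), Col4a1 1.83-fold (0.87 ± 0.25, adjusted p = 0.00302) and Lama4 1.78-fold (0.83 ± 0.17, adjusted p = 2.7e-05). Nid1 was lower (−1.25 ± 0.24, adjusted p = 9.51e-06), as were Col15a1 (−2.83 ± 0.85, adjusted p = 0.00431) and Lama2 (adjusted p = 1.14e-07). For Lama2, 1 UMI of 744414 was 4.3% of the pooled fibroblast level, with an exact Poisson 95% interval of 0.11 to 24.0%. Col4a2 was not called (0.35 ± 0.23, adjusted p = 0.241), but was called higher with RLE size factors (0.77), DESeq2 (0.71) and total counts (0.97).

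The vessel classes also differed among themselves. Against vascular endothelial cells, 3 members were higher and 3 lower in perivascular cells, beside 18.5% and 19.9% of all genes. Lama2 (log2 FC 1.95 ± 0.39, adjusted p = 1.85e-05) and Col18a1 (1.43 ± 0.23, adjusted p = 5.15e-08) were higher in perivascular cells, and Col15a1 (−1.50 ± 0.29, adjusted p = 9.41e-06) and Nid2 (−1.49 ± 0.35, adjusted p = 0.00022) were lower. Lamc1 was called higher (0.50 ± 0.17, adjusted p = 0.0136) and Lamb1 lower (−0.58 ± 0.22, adjusted p = 0.0234), close to the limits, and these calls were lost in 20 and 4 of 25 alternatives. Lamb1 lost it without peak 3 (−0.53, adjusted p = 0.0539), and Lamc1 without any 1 of 9 libraries, all but rest 3, resolving 3 and resolved 2, down to 0.33 without resolved 1. Col4a1 and Col4a2 had log2 FC of −0.05 ± 0.19 and 0.04 ± 0.17, with neither called.

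In lymphatic against vascular endothelial cells 2 members were higher and 3 lower, beside 5.47% and 15.5% of all genes. Lama4 was higher (log2 FC 0.76 ± 0.18, adjusted p = 0.00043). Col15a1 (−5.08 ± 0.67, adjusted p = 9.44e-10), Col4a2 (−1.63 ± 0.23, adjusted p = 4.2e-09) and Col4a1 (−1.43 ± 0.24, adjusted p = 9.12e-07) were lower. Col18a1 was called higher (0.80 ± 0.27, adjusted p = 0.0229), but the call was lost in 7 alternatives, which included leaving out peak 3 (0.59), resolving 3 (0.69) or resolved 3 (0.63), and the direction turned to −0.11 when sums needed at least 30 cells.

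**Figure D2:**
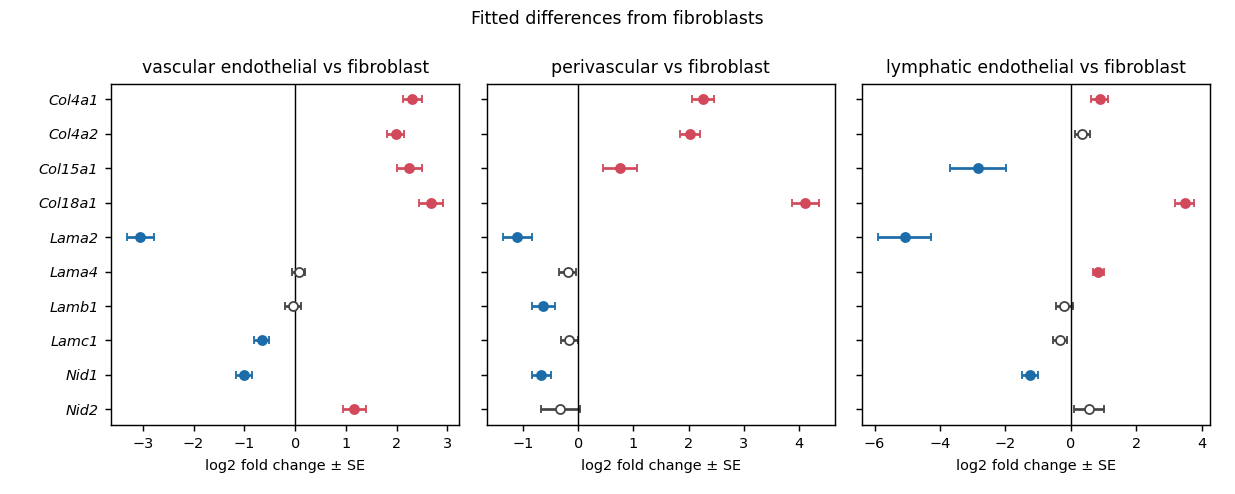
Log2 FC ± SE of each member in vascular endothelial, perivascular and lymphatic endothelial cells against fibroblasts, with red for members called higher, blue for those called lower and open points for those not called. The collagens lie to the right in vascular endothelial and perivascular cells, and Lama2 and Nid1 lie to the left in all 3 comparisons.

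Markers of other classes were low but present in the vessel classes. The summed level of the 7 fibroblast markers was 666 to 5907 CPM (median 2132) in vascular endothelial cells, 1722 to 5886 CPM (median 2617) in perivascular cells and 896 to 4419 CPM (median 1275) in lymphatic endothelial cells, against 17530 to 70135 CPM (median 34902) in fibroblasts. The 10 perivascular markers summed to 521 to 1238 CPM (median 1053) in vascular endothelial cells against 15085 to 25546 CPM in perivascular cells, and the 7 vascular endothelial markers to 41.0 to 253 CPM (median 122) in perivascular cells. Their part in the results was not tested.

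The skeletal classes carried less of most of these genes. In osteoblasts all 10 members were lower than in fibroblasts, with log2 FC from −2.67 for Nid1 to −1.13 for Col15a1, beside 16.5% of all genes called lower. For Col15a1 the difference was gone with coarser clusters (−0.00057, adjusted p = 1), where the osteoblast class held 2142 cells and not 1379. Chondrocytes had 8 members lower, beside 21.3% of all genes, with Nid1 at −3.81 ± 0.22 (adjusted p = 4.89e-29) and Lamb1 at −3.11 ± 0.26 (adjusted p = 1.69e-19). The 2 chondrocyte exceptions were Nid2, which was higher (log2 FC 2.04 ± 0.23, adjusted p = 3.59e-13), and Col15a1, which ranged from 26.5 to 137 CPM (median 57.7) and was also called higher (1.04 ± 0.26, adjusted p = 0.000601), beside 15% of all genes. The chondrocyte class joined a cluster of 567 cells led by Cytl1, Clu and Tnfrsf11b and a cluster of 314 cells led by Col2a1, Col9a3 and Col9a2. The direction of Col15a1 turned to −0.32 without the cells of highest doublet score and to −0.23 with coarser clusters, and the class then held 275 and 313 cells in place of 881, so that different cells were compared.

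Tenocytes had 6 members lower, beside 9.61% of all genes, and Col15a1 higher (58.0 ± 37.4 CPM, log2 FC 0.83 ± 0.26, adjusted p = 0.0115), beside 6.86% of all genes. The call of Col15a1 was lost with DESeq2 (0.72, adjusted p = 0.13) and in edgeR without the library block (0.86, adjusted p = 0.0592). Col4a1 was near the limits (log2 FC −0.55, adjusted p = 0.0364), and its call was lost without any 1 of 8 libraries, all but rest 3, peak 2, resolving 2 and resolved 1, at −0.48 to −0.56. Muscle cells had 6 lower, beside 28.8%. Of these, Lama4 rested on 3 UMIs of 1395554, or 2.92% of the pooled fibroblast level (exact Poisson 95% interval 0.603 to 8.55%), and Nid2 on 2 UMIs. Lama2, Col4a1, Col15a1 and Col18a1 were not called in muscle cells. Proliferating cells had 8 members lower, beside 15.3%, with Lamb1 and Nid2 not called.

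The other classes had 3 libraries (immune and Schwann cells) or 2 (erythroid cells). Immune cells, which the CD45 sort should largely have removed, had 8 members lower, beside 19.7% of all genes. Of their 357505 UMIs, 0 were of Lama2, 1 each of Col4a2 and Col15a1, 2 of Lama4 and 3 of Lamc1, and the call of Col15a1 was lost in 12 of 25 alternatives. Erythroid cells had 4 lower, beside 8.93% of all genes, all on few counts: of 139254 UMIs, 0 were of Lama4, 1 of Nid1 and 2 each of Lamb1 and Lamc1. The call of Lamb1 in erythroid cells was lost in 14 of 24 alternatives. In Schwann cells, which make a basement membrane of their own, Nid1 was the 1 member lower (log2 FC −2.05, adjusted p = 0.00511), beside 9.5% of all genes, and this call was lost in 7 of 25 alternatives. These included DESeq2 (−1.53, adjusted p = 0.0705) and leaving out rest 1 (−1.65, adjusted p = 0.106) or peak 3 (−2.12, adjusted p = 0.0612).

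Neighbours in the order of mean CPM over the 9 classes with at least 6 libraries were compared by a two-sided exact paired permutation test over libraries, on log2(CPM + 1). Of 80 such comparisons, 27 had a raw exact p under 0.05 and 16 had an adjusted one. For Col4a1 vascular endothelial cells came first and were above perivascular cells in 9 of 12 libraries (exact p = 0.0166, adjusted 0.07), which did not hold after adjustment, and perivascular cells were above lymphatic endothelial cells (exact p = 0.00781, adjusted 0.0446), these above fibroblasts (exact p = 0.00195, adjusted 0.0195), and tenocytes above osteoblasts (exact p = 0.000488, adjusted 0.013). For Col4a2 the first 2 classes could not be separated (exact p = 0.254).

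Col15a1 was higher in vascular endothelial cells than in chondrocytes (exact p = 0.00537, adjusted 0.0358), while chondrocytes, perivascular cells and tenocytes could not be separated (exact p = 0.117 and 0.203). For Col18a1 perivascular and lymphatic endothelial cells could not be separated (exact p = 0.408), and both came before vascular endothelial cells (lymphatic above vascular, exact p = 0.00977, adjusted 0.0488). Lama4 was higher in lymphatic than in vascular endothelial cells (exact p = 0.00195, adjusted 0.0195), and in these than in fibroblasts (exact p = 0.000977, adjusted 0.0195, higher in 11 of 12 libraries). The edgeR fit with TMM scaling did not call this last difference. Without TMM its mean log2 difference was 0.37, beside a median log2 FC of 0.27 over all genes with scaling by total counts.

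The remaining orders had less separation at the top. Tenocytes, fibroblasts and muscle cells could not be separated for Lama2 (exact p = 0.481 and 0.121), nor fibroblasts and perivascular cells for Nid1 (exact p = 0.0791), nor chondrocytes, vascular and lymphatic endothelial cells for Nid2 (exact p = 0.993 and 0.551). Lymphatic endothelial cells led for Lamc1 without separation from perivascular cells (exact p = 0.117), and proliferating cells led for Lamb1 by their mean. In the 5 libraries they shared with lymphatic endothelial cells they were the lower class in all 5 (mean log2 difference −0.28, exact p = 0.0625, the smallest that 5 libraries allow). These values use CPM without TMM scaling.

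Shares of cells with at least 1 UMI depend on depth and did not always follow the levels. For Lama4 they were 26.0% of vascular endothelial cells and 33.3% of fibroblasts, against the order of the mean CPM, and 15.6% and 13.0% with each cell thinned to 2000 UMIs. Among vascular endothelial cells 55.3% (Wilson 95% interval 53.0 to 57.6%) had a UMI of Col4a1 and 56.6% of Col4a2, against 5.36% and 1.79% of immune cells, at median depths of 3177 and 3719.5 UMIs per cell. Among perivascular cells 66.3% (62.6 to 69.8%) had a UMI of Col18a1, and among fibroblasts 49.1% (48.2 to 50.02%) had one of Nid1, against 1.79% and 0.893% of immune cells, at depths of 3882 and 5788 UMIs. The intervals cover counting error only. After thinning, the shares of Col4a1, Col4a2, Col18a1 and Nid1 were 43.8%, 42.9%, 51.6% and 24.95%.

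Within the fibroblasts, the lining cluster and 1 sublining cluster differed in most of the members tested. The lining cluster (1149 cells, led by F13a1, Prg4 and Col22a1) was compared with the sublining cluster (1625 cells, led by Pi16, Stmn4 and Efhd1) in 12 libraries, over 5846 genes. Of the 7 members that passed the filter on low counts, 2 were higher in the lining, beside 12.3% of all genes, and 4 were lower, beside 13.8%.

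Col4a1 was 122 CPM in the lining against 39.6 CPM in the sublining (log2 FC 1.63 ± 0.11, adjusted p = 1.73e-11), and Col4a2 was 152 against 44.95 CPM (1.79 ± 0.11, adjusted p = 2.72e-12). Both were higher in the lining in 12 of 12 libraries. This holds against that sublining cluster, and the fibroblast cluster led by Ccl11, described further on, had more of both than the lining by mean CPM (207 and 252 CPM). Lama2, Lama4, Lamc1 and Nid1 went the other way in 12 of 12 libraries.

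Lama2 was 2.47 CPM in the lining against 54.7 CPM in the sublining (log2 FC −4.36 ± 0.23, adjusted p = 3.04e-13) and Nid1 42.0 against 273 CPM (−2.75 ± 0.12, adjusted p = 7.23e-15). Lamc1 was 41.2 against 150 CPM (−2.05 ± 0.14, adjusted p = 1.55e-11) and Lama4 58.0 against 103 CPM (−0.81 ± 0.11, adjusted p = 1.6e-06). Lamb1 had a log2 FC of 0.42 ± 0.15 (adjusted p = 0.0255), under the fold limit, and was higher in the lining in 9 of 12 libraries.

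The log2 ratio of Lamb1 to Lamc1 was thus 0.45 ± 0.63 in the lining (n = 11) and −2.12 ± 0.65 in the sublining (n = 8). Col15a1, Col18a1 and Nid2 were not tested, with 8.93 against 15.3 CPM, 8.94 against 13.6 CPM and 4.24 against 9.08 CPM.

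The 10 fibroblast clusters, which were made from the same cells and are described without a test, held the members unevenly. A cluster of 878 cells led by Ccl11, Hsd11b1 and Hmcn2 had the highest Col4a1 (207 ± 77.3 CPM), Col4a2 (252 CPM), Col15a1 (149 CPM), Lama2 (132 ± 23.4 CPM), Lamc1 (181 CPM) and Nid1 (339 ± 55.2 CPM), each above the other fibroblasts in 12 of 12 libraries. Its Lama2 ran from 103 to 173 CPM (median 128), where the remaining fibroblasts averaged 29.6 CPM. Its Lama4 was 91.6 CPM, above the rest in 11 libraries, and its Lamb1 74.8 CPM, above the rest in 7.

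Other clusters favoured other members. The cluster of 1219 cells led by Cxcl5, Saa3 and Sfrp1, of which 1085 cells came from run 2, had 133 CPM of Lamb1 and 57.8 CPM of Nid2, above the other fibroblasts in 6 of 6 libraries, with 7.13 CPM of Lama2. The cluster led by Hp, Col14a1 and Acp5 (849 cells, 716 in run 3) had a median of 52.2 CPM of Col18a1 over 8 libraries, above the rest in all 8, with a mean of 82.5 CPM that included 289 CPM in a library with 10 such cells. The cluster led by Col8a1, Egfl6 and Mfap4 (886 cells) had 58.1 CPM of Col15a1 with the lowest Lama4 (26.4 CPM), Lamb1 (16.01 CPM) and Lamc1 (31.8 CPM).

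**Figure D3:**
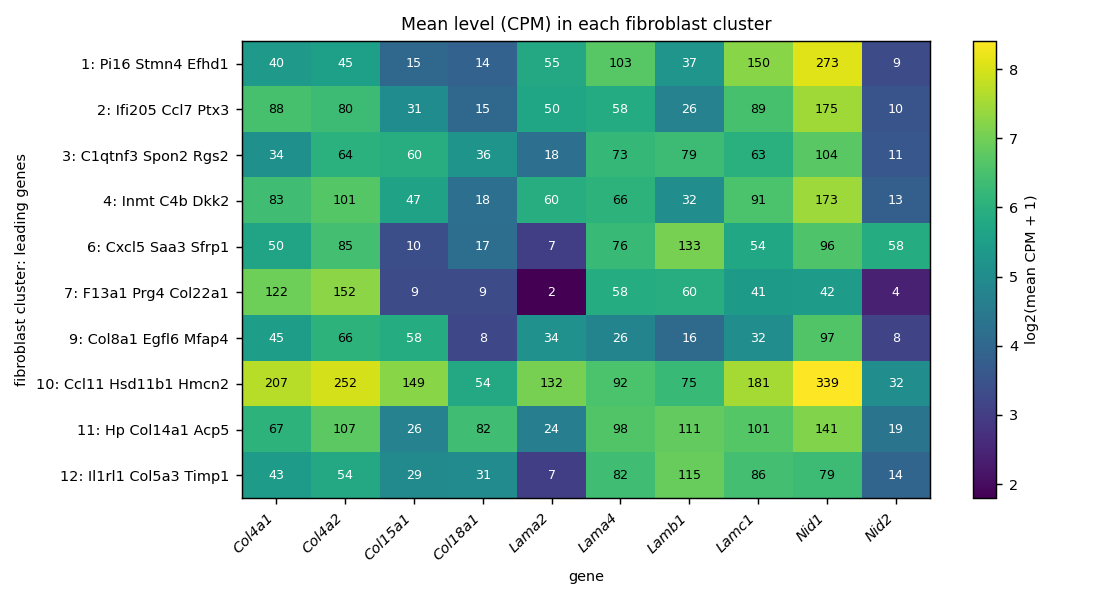
Mean CPM of each member in the 10 fibroblast clusters, named by their 3 leading genes; colour gives log2(mean CPM + 1) and the number in each cell the mean CPM over libraries. The cluster led by Ccl11 has the highest Col4a1, Col4a2, Col15a1, Lama2, Lamc1 and Nid1, and the lining cluster led by F13a1 combines 122 CPM of Col4a1 with 2.47 CPM of Lama2.

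The vessel classes had subsets of their own, again given without a test. The endothelial cluster led by Plvap, Selp and Lrg1 (630 cells) had more Col15a1 (332 against 54.8 CPM) and Col18a1 (272 against 69.4 CPM) in 12 of 12 libraries than the cluster led by Timp4, Gpihbp1 and Cd36 (1139 cells), and more Col4a2 (582 against 282 CPM), Nid2 (64.9 against 15.95 CPM) and Lamb1 (84.7 against 34.5 CPM) in 11. Lama4 was 99.9 against 80.7 CPM and higher in 8.

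Among perivascular cells, pericyte-like cells (312 cells) and smooth muscle-like cells (198 cells) could be set side by side in 9 libraries. Sub-clusters of 130 and 15 perivascular cells took neither name and were left out. Nid1 was 151 against 30.8 CPM, higher in pericyte-like cells in 9 of 9 libraries, and Lamb1 (53.4 against 3.34 CPM), Lama2 (22.3 against 2.66 CPM) and Col4a1 (486 against 244 CPM) were higher in 8. The smooth muscle-like levels of Lamb1 and Lama2 rested on 3 UMIs each over 10 libraries, with a median of 0 CPM, and that of Nid1 on 23 UMIs. Col18a1 was 408 against 389 CPM and higher in 4 of 9.

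The labels ask how levels moved from rest through peak arthritis to its resolution. In fibroblasts, vascular endothelial and perivascular cells, 0 members were called in any of the 9 comparisons of a later label with rest, and 0% of the 11826, 7013 and 3196 genes tested were called by edgeR's quasi-likelihood test. In every alternative run, DESeq2 and leaving out each library among them, 0 members were called. Since libraries of one run were alike, the labels were also compared with the suffix run as a block, and 0 members and 0 of all genes were called in the 9 comparisons (the lowest adjusted p of a member was 0.908). In that fit 115 to 448 genes a comparison had an unadjusted p under 0.05, with 8 values of members among them, such as perivascular Col18a1 in resolving against rest (log2 FC −0.75 ± 0.25, adjusted p = 0.908). Over all genes, calls appeared without the filter on low counts, 25 to 47 in vascular endothelial and 9 to 12 in perivascular cells, and with the replicate number as a block, 1 in vascular endothelial and 2 in perivascular cells in resolved against rest. Without a block, at an unadjusted p under 0.05, there were 94, 84 and 64 genes in fibroblasts for peak, resolving and resolved, 88, 189 and 108 in vascular endothelial cells and 40, 79 and 47 in perivascular cells, and 1 member among them, fibroblast Lama4 in resolved against rest (log2 FC 0.41 ± 0.18, adjusted p = 0.9999).

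The spread within a label was wide. Vascular endothelial Col18a1 was 48.0, 430 and 302 CPM in the 3 libraries labelled rest, 46.6, 454 and 22.9 CPM in those labelled peak, 53.3, 375 and 22.9 CPM in resolving and 304, 459 and 20.6 CPM in resolved. Every label thus had at least 1 library above 300 CPM and at least 1 under 54 CPM. The ranges of a later label and rest did not overlap in 3 of 30 cases in fibroblasts, 1 of 30 in perivascular and 0 of 30 in vascular endothelial cells. No share over all genes stands beside these counts, so they are not read as an effect of the label.

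By suffix run the same values fell together. Vascular endothelial Col18a1 was 48.0, 46.6 and 53.3 CPM in run 1, 430, 454 and 304 CPM in run 2, 302, 375 and 459 CPM in run 3 and 22.9, 22.9 and 20.6 CPM in run 4. Runs 2 and 3 overlapped each other and lay wholly above runs 1 and 4. Run means of vascular endothelial Col4a1 were 295, 616, 739 and 242 CPM and of Col15a1 101, 305, 480 and 65.3 CPM, while those of Lama4 were 97.8, 94.96, 103 and 80.8 CPM.

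A quasi-likelihood F test between the 4 runs passed an adjusted p of 0.05 for 8 of the 9 members tested in vascular endothelial cells, beside 24.9% of all genes, for 7 of 8 in perivascular cells, beside 26%, and for 7 of 10 in fibroblasts, beside 57.7%. The runs were set apart with the likeness of their libraries known, so these p-values are no independent test of the split and do not measure its size. In vascular endothelial cells the smallest adjusted p was that of Col18a1 (1.43e-10), and Lama4 did not pass (0.685). Lama4 did not pass in perivascular cells (adjusted p = 0.0546) or fibroblasts (0.376) either.

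Perivascular cells showed the split in the same collagens. Col4a1 was 304, 203 and 111 CPM in run 1, 456, 636 and 608 CPM in run 2, 767, 713 and 865 CPM in run 3 and 160, 174 and 184 CPM in run 4 (adjusted p = 3.83e-05). Col15a1 reached 63.2 to 188 CPM in the 6 libraries of runs 2 and 3 and 0 to 16.5 CPM in the other 6. Col18a1 averaged 205, 699, 648 and 214 CPM and Nid1 36.5, 191, 146 and 52.0 CPM.

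In fibroblasts the type IV collagens did not pass between runs (Col4a1 adjusted p = 0.367, Col4a2 0.128), whereas Lama2 and Lamb1 did. Lama2 was 60.9, 57.4 and 64.8 CPM in run 1, 13.1, 17.7 and 17.4 CPM in run 2, 18.9, 22.6 and 28.1 CPM in run 3 and 42.7, 37.5 and 38.0 CPM in run 4, so no 2 runs overlapped (adjusted p = 7.86e-07). Lamb1 ran the other way, with means of 19.4, 93.7, 103 and 29.6 CPM (adjusted p = 1.36e-07), and Nid2 was highest in run 2, with 43.3, 39.2 and 44.2 CPM against a run mean of 8.56, 17.2 and 6.49 CPM elsewhere (adjusted p = 4.48e-07).

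**Figure D4:**
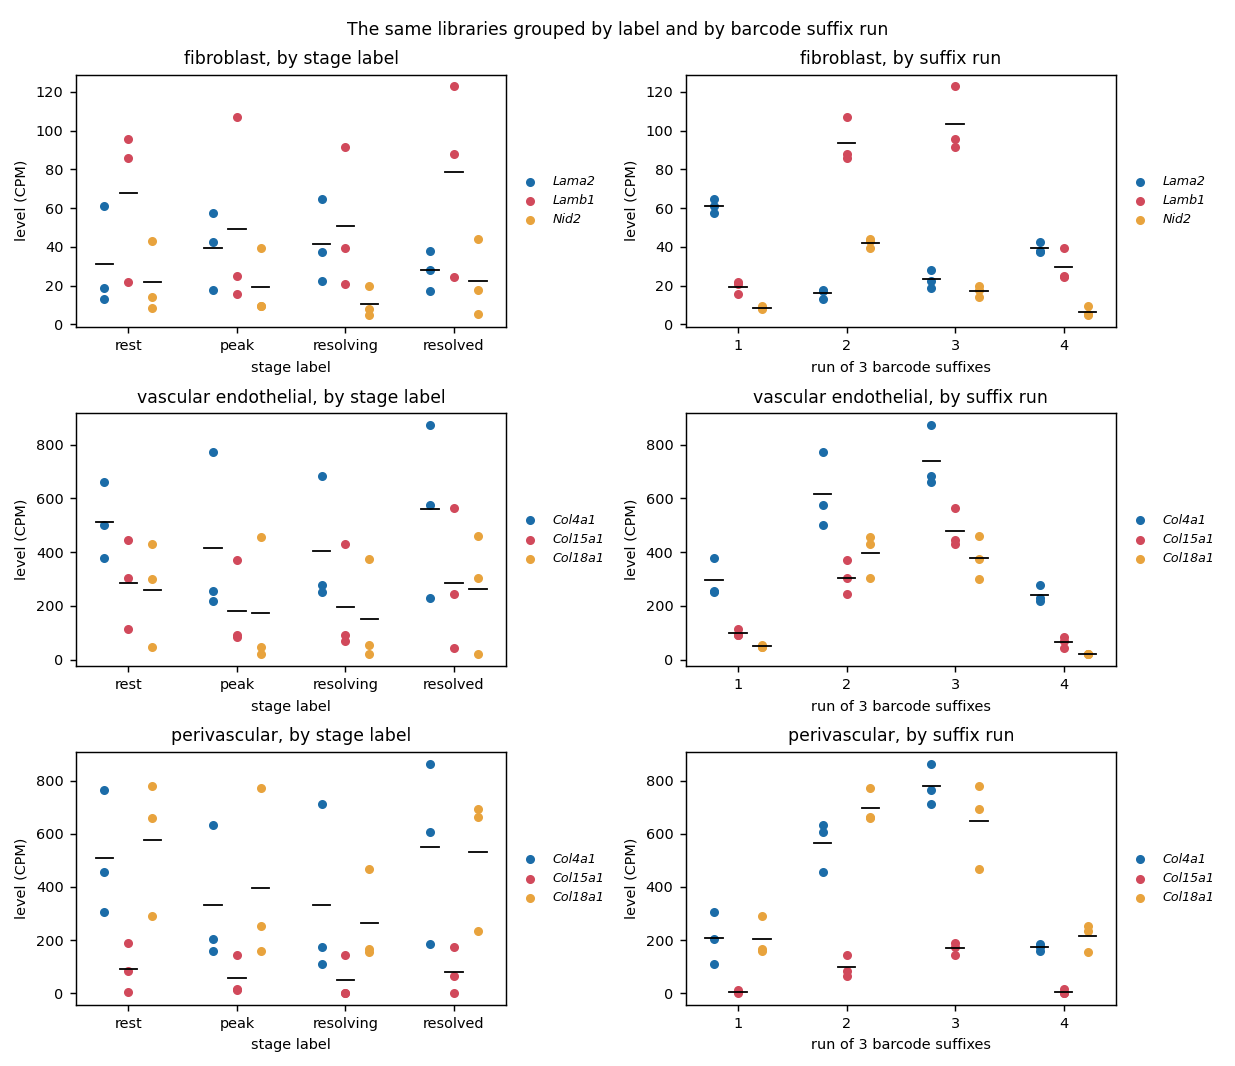
CPM of fibroblast Lama2, Lamb1 and Nid2 and of vascular endothelial and perivascular Col4a1, Col15a1 and Col18a1, in the left of each pair of panels by label and in the right by suffix run; points are libraries and lines are means. The 3 libraries of a label scatter over the range of the gene, and the 3 of a run lie together, as for vascular endothelial Col18a1 at 20.6 to 22.9 CPM in run 4.

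The runs also differed in which cells they held. The endothelial cluster led by Plvap made up 29.7%, 66.2%, 65.1% and 15.7% of vascular endothelial cells in runs 1 to 4. Within that cluster Col18a1 still averaged 79.6, 474, 465 and 70.5 CPM and Col4a1 261, 711, 889 and 289 CPM, and within the cluster led by Timp4 Col18a1 averaged 31.6, 96.0, 142 and 8.29 CPM and Col4a1 317, 250, 327 and 227 CPM. In the fibroblasts, the cluster led by Cxcl5 was 37.5% of run 2 and at most 3.28% of the other runs, and the cluster led by C1qtnf3, Spon2 and Rgs2 was 34.1% of run 3.

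Other genes of the basement membrane did not share one direction. Of 28 listed, 17 were tested, and in vascular endothelial cells 6 were higher and 9 lower than in fibroblasts (median log2 FC −1.21), beside 24.8% and 28% of all genes. In perivascular cells they were 5 and 7 (median −0.03), beside 16.1% and 23.2%, and in lymphatic endothelial cells 2 and 6 (median −0.94), beside 11.7% and 26.4%. Tinagl1, a secreted matrix protein of vessels, was 697 ± 132 CPM in vascular endothelial and 966 ± 163 CPM in perivascular cells against 1.91 ± 0.77 CPM in fibroblasts (log2 FC 8.05 ± 0.21 and 8.58 ± 0.21, adjusted p = 8.47e-58 and 6.62e-59). Lama5, the alpha chain of adult vessel laminins, was 61.0 CPM in perivascular cells against 1.71 CPM (4.86 ± 0.25), and Egflam, which encodes pikachurin, 27.1 against 0.374 CPM (5.50 ± 0.37).

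Smoc2, a matricellular calcium-binding protein, was lower in vascular endothelial cells at 12.7 against 274 CPM (log2 FC −4.75 ± 0.31), as was Col4a5, another type IV collagen chain, at 0.575 against 10.9 CPM (−4.28 ± 0.41). Sparc, a collagen-binding protein, had the highest mean CPM of the list in all 12 classes, up to 30479 ± 4694 CPM in osteoblasts.

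Of 11 listed receptors of the basement membrane, 10 were tested. Against fibroblasts, 5 were higher and 3 lower in vascular endothelial cells (24.8% and 28% of all genes), 6 higher and 1 lower in perivascular cells (16.1% and 23.2%) and 4 higher and 2 lower in lymphatic endothelial cells (11.7% and 26.4%). Bcam, a receptor of laminins with the alpha5 chain, was 385 ± 138 CPM in vascular endothelial and 437 ± 178 CPM in perivascular cells against 1.39 ± 0.86 CPM in fibroblasts (log2 FC 7.64 ± 0.18 and 7.85 ± 0.18). Itga7, a laminin-binding integrin chain, was 154 ± 34.0 CPM in perivascular cells against 4.52 CPM (4.82 ± 0.17), and Itga1, the chain of a collagen-binding integrin, had log2 FC of 4.28 ± 0.19 and 4.86 ± 0.21 in vascular endothelial and perivascular cells. Itgb4, which pairs with the alpha6 chain, was higher in vascular endothelial cells (4.08 ± 0.26). Itgb1 had the highest mean of the receptors in 11 of 12 classes and Dag1, which encodes dystroglycan, in Schwann cells.

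Over the mean log2(CPM + 1) of the 12 classes, which share libraries and differ in depth, Col4a1 and Col4a2 correlated with Pearson's r = 0.89, Lamc1 and Nid1 with 0.94, and Col15a1 and Col18a1 with 0.06. Outside the lists the genes most like Col4a1 were Fzd4 (r = 0.93) and Cdc42ep2 (0.93), those most like Col4a2 Cav1 (0.95) and Ptrf (0.95), and those most like Col18a1 Pear1 (0.94) and Rbpms (0.94). Lpar4 and Kifc3 were closest to Col15a1 (0.95 and 0.92), Entpd2 and Ncald to Lama2 (0.91 and 0.90), Nckap1 and Msl1 to Lama4 (0.98 and 0.96), Uhrf2 and Tbcd to Lamb1 (0.95 and 0.94), Casp12 and Egln2 to Lamc1 (0.95 and 0.95), Cmtm3 and Jak1 to Nid1 (0.94 and 0.93) and Plpp2 and Herc4 to Nid2 (0.93 and 0.92). These are descriptions over 12 points.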

How the data were processed

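The authors deposited, for each of 12 libraries, a matrix of raw counts (UMIs per gene and cell) from Cell Ranger on mm10. Strand and intron settings are not given in the sources used here. The deposited median of 5358 UMIs per cell was the same in all 12 libraries, so depth may have been equalised between libraries, a step that is not given in the sources used here. Of 21042 cells, 20060 passed the limits in the study's methods (500 to 5000 genes, at least 500 UMIs and at most 20000 to 40000 UMIs by library).

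Counts were scaled to 10000 per cell, and 2000 variable genes without the members or the basement membrane lists gave 30 principal components and 25 Leiden clusters (scanpy 1.11.5, resolution 1). Clusters took a class from fixed markers. The limits for naming, the exceptions for lymphatic endothelial and proliferating cells, the split of perivascular cells and the doublet rule were set after the clusters and scores were seen. Scrublet called 56 cells (0.279%), too few to have worked, and none was removed.

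UMI sums of at least 10 cells were fitted in edgeR 4.0.16 (R 4.3.3) with its expression filter, TMM and the quasi-likelihood F test. The SE is the size of the log2 FC divided by the square root of F. DESeq2 1.42.0, other scalings, filters, blocks, cell limits and each library left out were alternatives. Each library pooled 3 animals. In the label and run fits the p-values measure the spread between libraries. In the class and lining fits, with the library as a block, they measure the spread of the difference over libraries. Some of these differences were shared by the libraries of a run. Perivascular Nid1 had mean log2 ratios to fibroblasts of −2.31, 0.81, 0.03 and −1.69 in runs 1 to 4. The libraries are thus not fully independent, and small p-values can overstate the evidence. The number of libraries and, in rare classes, of UMIs limits the precision.

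Positions came from GENCODE M21 (GRCm38), which held 27645 of 27998 gene IDs. Genes on the other strand overlapped 8 of the 10 members, and their reads cannot be told apart if strand was not used. On the same strand, Gm44716 overlapped Col4a1, Gm36962 overlapped Lama2 and Gm38009 overlapped Lamc1, which strand cannot separate. The members and lists were chosen with earlier results of these data known. Apart from the 10 members, the text names the 3 genes of each list with the largest called change in vascular endothelial and in perivascular cells and one direction in every library, the highest gene of each list by class, the 2 genes most like each member and the 3 leading genes of a cluster. The scripts were tested on simulated data.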

Additional observations from a re-analysis of the deposited data

Results flagged for a closer look

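Of 70 groups of 4 to 10 libraries examined, 10 held a library far from its neighbours by Dixon's ratio, and chance flags about 1 in 20 groups. Most rested on few UMIs. In lymphatic endothelial cells Col15a1 reached 57.1 CPM in peak 2 (4 UMIs, next library 20.2 CPM) and Lama2 14.9 CPM in peak 3 (1 UMI, with 0 in the other libraries). In muscle cells the library resolved 2, with 11 cells, had the highest Col15a1 (59.2 CPM, 2 UMIs), Col18a1 (88.9 CPM, 3 UMIs) and Col4a2 (118 CPM, 4 UMIs), and resolving 2, with 13 cells, the highest Lamb1 (38.9 CPM, 2 UMIs) and Nid2 (19.5 CPM, 1 UMI).

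Among fibroblast clusters, Col18a1 in the cluster led by Hp, Col14a1 and Acp5 was 289 CPM in resolving 3 (20 UMIs from 10 cells), with 99.8 CPM in the next library. In the cluster led by C1qtnf3, Spon2 and Rgs2, Col4a1 was highest in peak 2 at 66.5 CPM (14 UMIs) and Lamc1 lowest in peak 3 at 22.0 CPM (6 UMIs). Lama4 in libraries labelled resolving was 11.0 CPM above those labelled rest in fibroblasts and −29.0 CPM from them in perivascular cells. Of 90 pairs of classes and labels examined, this was the 1 flagged as differing between classes, which does not count every pair with opposite signs. The difference was not tested.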

How the results depend on the processing

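Of the log2 FC of called members, 1096 values from other settings and 1058 from leaving out a library kept their direction and their side of the threshold, 85 and 46 lost the call, and 3 turned. These were Col15a1 in chondrocytes, at −0.32 without the highest doublet scores and −0.23 at Leiden resolution 0.5 (275 and 313 cells in the class, not 881), and Col18a1 in lymphatic against vascular endothelial cells, at −0.11 with at least 30 cells per sum, which left few libraries. At 30 cells the number of members past the threshold fell from 6 to 1 in lymphatic cells against fibroblasts, from 5 to 1 against vascular endothelial cells, from 8 to 5 in immune cells and from 1 to 0 in Schwann cells. Schwann cells also had 0 with RLE size factors, total counts or the highest doublet scores removed, and 2 with the members among the clustering genes or thinned cells. Erythroid cells went from 4 to 1 with DESeq2 and to 2 with RLE size factors, thinned cells or doublet scores removed. Proliferating cells went from 8 to 3 without the library block and 5 with thinned cells. With RLE size factors the receptors higher in vascular endothelial cells went from 5 to 7. The cause was not tested.

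With the replicate number as a replicate block, the count was 5 in proliferating cells, 5 in perivascular cells (7 without it), 8 in vascular and 6 in lymphatic endothelial cells, 7 for lining against sublining, 0 in all label comparisons and 4 for suffix runs in perivascular cells (7 without it). The numbers were not taken as pairs: 18 pairs of the same number correlated from −0.64 to 0.79, 11 of them over 0.1, and 5 of 12 libraries were closest to their own number.

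Leaving out each library in turn gave 8 to 8 members past the threshold in vascular endothelial cells, 5 to 7 in perivascular, 6 to 6 in lymphatic, 10 to 10 in osteoblasts and chondrocytes, 6 to 7 in tenocytes, 6 to 6 in muscle, 7 to 8 in proliferating and immune cells, 2 to 4 in erythroid cells (2 without rest 2, resolved 1 or resolved 2) and 0 to 1 in Schwann cells (0 without rest 1 or peak 3). It gave 4 to 6 for perivascular and 4 to 5 for lymphatic against vascular endothelial cells, 6 to 7 for the lining, 0 to 0 for the labels, and 6 to 9, 8 to 8 and 7 to 8 for runs in fibroblasts, vascular endothelial and perivascular cells.

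Thinning lowered the share of cells with a UMI in the class with the highest mean CPM of each member: Col4a1 from 55.3% to 43.8% and Col4a2 from 56.6% to 42.9% (vascular endothelial), Col15a1 from 27.5% to 20.4% (vascular endothelial), Col18a1 from 66.3% to 51.6% (perivascular), Lama2 from 15.6% to 6.52% (tenocyte), Lama4 from 48.4% to 33.5% and Lamc1 from 29.0% to 16.8% (lymphatic endothelial), Lamb1 from 56.4% to 15.9% (proliferating), Nid1 from 49.1% to 24.95% (fibroblast) and Nid2 from 25.3% to 8.30% (chondrocyte). The share itself was highest in another class for some members. Col4a1 and Col4a2 had 68.1% and 69.9% in perivascular cells, and 52.0% and 56.4% after thinning. Total counts moved the share of higher genes among those called from 40.9% to 54.5% in osteoblasts, 41.6% to 29.6% in tenocytes, 39.9% to 57.3% in proliferating, 34.4% to 76.8% in Schwann and 26.1% to 49.0% in lymphatic against vascular endothelial cells, and RLE size factors from 37.8% to 73.1% in erythroid and 34.4% to 47.9% in immune cells. The lining was not fitted at Leiden resolution 0.5. Sums of rare classes, with few UMIs of a member, limit what can be detected.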
